A study of Mus musculus with 8 samples.

Results

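Lysosomal hydrolases are the acid enzymes that break complex glycans, lipids and proteins down to their building blocks. The genes described here are 31 such enzymes and their helper proteins, taken as a list of named genes and grouped by the substrate they act on, out of 12367 genes in the table. They encode 9 proteins of sphingolipid breakdown, 7 of glycosaminoglycan breakdown, 5 of glycoprotein breakdown, 1 glycogen enzyme, 2 lipases, 5 enzymes that act on proteins and 2 acid phosphatases. All 31 were in the table, and 30 reached a value of 1 in 4 or more libraries and were tested; the exception was the sulfatase gene Sgsh.

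Polyadenylated RNA was sequenced from lung alveolar macrophages of untreated mice at 3 weeks of age. The 4 WT libraries came from Tfam-fl/fl mice, which carry floxed alleles of the gene for a mitochondrial transcription factor and no Cre. The 4 KO libraries came from CD11c-Cre Tfam-fl/fl mice, in which the Cre is active in cells that express CD11c, a group that holds alveolar macrophages and dendritic cells. No group carried the Cre without the floxed alleles, so that effects of the Cre and of the loss of Tfam cannot be told apart. Each library pooled cells of 3 to 5 male and/or female mice, enriched on CD11c beads and then sorted for CD45, F4/80 and CD11c. The p-values measure the spread between these pools.

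Over all genes of the table, WT libraries held 24776683 to 29161957 reads and KO libraries 20243772 to 30263201, and 3 reads corresponded to a value of 0.117 to 0.178. All values are on a per-million scale of normalised reads. Tfam ranged from 26.1 to 35.2 in WT and from 3.52 to 5.08 in KO (log2 difference -2.55, SE 0.117, limma adjusted p = 1.02e-06). The 10 alveolar macrophage markers were all measured, with summed values of 31981 to 34253 in WT and 33348 to 38767 in KO, and 2 of them were higher and 3 lower in KO. Most of this sum was Chil3, at 22376 to 25450 in WT and 24490 to 30293 in KO. The 3 lower markers were Ear2, from 2245 ± 178 to 477 ± 111, Siglecf, from 501 ± 37.6 to 194 ± 20.9, and Krt79, from 612 ± 75.4 to 290 ± 40.6 (SD, n = 4). The 2 higher ones were Itgax and Car4. Itgax encodes CD11c, on which the cells of both groups were enriched and sorted, so its value is not independent of that selection. Markers of other cells were low. The summed value of 6 interstitial macrophage markers was 16.1 to 32.7 in WT and 41.7 to 130 in KO, with 5 of them higher, and that of 4 monocyte markers was 26.8 to 40.8 in WT and 39.1 to 99.3 in KO, with 2 higher. Dendritic cell markers summed to 14.3 to 20.6 in WT and 15.4 to 28.2 in KO with 1 of 6 higher. The sum of 4 granulocyte markers was 22.9 to 58.1 in WT and 74.7 to 114 in KO, with 1 higher and 1 lower. The higher one was Cxcr2, with means of 13.3 in WT and 75.1 in KO. The lower one was S100a9, with means of 11.9 in WT and 3.82 in KO, while S100a8 did not pass and Retnlg was not tested. The lymphocyte marker Ms4a1 was 0.769 to 1.47 in WT and 0.436 to 1.14 in KO, and 6 epithelial, endothelial and stromal markers summed to 54.8 to 171 in WT and 86.0 to 128 in KO with 0 called. Folr2, Ly6c2, Ly6g, Prg2, Epx and 5 lymphocyte markers were not analysed here. The part of such cells in the results below was not tested. In pooled cells, fewer cells of a type and less RNA per cell cannot be told apart.

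Lysosomal hydrolases are made in the endoplasmic reticulum, most are tagged with mannose 6-phosphate in the Golgi, and receptors carry them to endosomes and lysosomes, where low pH activates them. Many act in sequence from the end of a chain, so that the loss of any one leaves its substrate undigested, which is the basis of the inherited lysosomal storage diseases. Alveolar macrophages take up surfactant, dead cells and particles from the air spaces, and their lysosomes degrade the surfactant lipids and proteins. Many lysosomal genes carry an E-box with the letters TCACGTG near the start site, which TFEB, TFE3 and MITF can bind.

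These letters were looked for, on both strands, in RefSeq promoter windows (build GRCm38.p6) reaching from 250 bases before to 50 bases after each start site. Of the 31 genes, 28 had a window, and Aga, Asah1 and Galns had none in the table used. TCACGTG occurred in 8 of the 28 genes, Arsa, Dpp7, Gaa, Gla, Glb1, Lgmn, Naglu and Sgsh, which is 25% of their 32 windows. It occurred in 3.77% of all 32851 promoter windows and in 6.01% of the 11763 windows of tested genes. It also occurred in 8% of the 25 windows of a list of other lysosomal hydrolases and in 44.4% of the 18 windows of genes of enzyme delivery and activation. The shorter CACGTG, which lies inside TCACGTG, was in the same number of windows of the 31 genes (25%) and in 10.1% of the windows of tested genes. The 8-base palindrome TCACGTGA was in 2 genes, Dpp7 and Gla. The median GC content of the windows was 56% for the 31 genes and 60.7% for tested genes. The stretches of 6 of these promoters are shown because they are the ones to set beside the expression values of their genes; each reads 5′ to 3′ on the gene's strand and the capitals mark the E-box. Dpp7 lies at chr2:25356374-25356431 on the minus strand, with the site 74 bases before the start. Gla lies at chrX:134601193-134601222 on the minus strand and has another site further upstream, the 2 standing 228 and 195 bases before the start. Naglu lies at chr11:101069995-101070041 on the plus strand, Gaa at chr11:119267797-119267853 on the plus strand, Arsa at chr15:89477410-89477466 on the minus strand and Glb1 at chr9:114401004-114401060 on the plus strand, with sites 74, 141, 17 and 49 bases before the start.
Dpp7: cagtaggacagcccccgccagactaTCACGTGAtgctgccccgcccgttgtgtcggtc
Gla: tctacgtcatgtgagatctcggTCACGTGA
Naglu: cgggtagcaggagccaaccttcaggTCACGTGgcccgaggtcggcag
Gaa: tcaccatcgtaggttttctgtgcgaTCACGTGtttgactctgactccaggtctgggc
Arsa: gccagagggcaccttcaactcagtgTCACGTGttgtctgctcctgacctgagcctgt
Glb1: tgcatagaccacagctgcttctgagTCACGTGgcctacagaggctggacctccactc
The site of Lgmn lies in a window whose start site, chromosome 12 position 102439092, opens no transcript of the gene annotation used for positions (GENCODE vM21). In that annotation Naglu begins at position 101070012, upstream of its site. The Naglu site thus precedes the RefSeq start but lies inside the annotated gene.

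Most of the hydrolase genes were more abundant in KO, and a smaller number was less abundant. Of the 30 tested genes, 20 were higher in KO, 7 were lower and 3 did not pass the test. The background over the 12163 genes tested was 38.7% called, of which 18.7% of all were higher and 20% lower. All KO values lay above all WT values for 19 of the 30, against 18.1% of all tested genes, and below them for 7, against 19.6%. The median difference of the 30 genes was 0.279 on the log2 scale, with a range of -0.565 to 1.23, and the median of all tested genes was -0.00633. The 5 highest differences were those of Psap, Gla, Lgmn, Scpep1 and Dpp7, and the 7 genes that fell were Arsb, Man2b1, Fuca1, Gusb, Manba, Ppt1 and Ids.

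As a share of the reads in listed genes, the 31 genes together took 1.2% ± 0.0250 in WT and 1.94% ± 0.0605 in KO (SD, n = 4). This summed share is set mainly by Psap, which made up 5187 of a mean summed value of 11658 in WT and 12194 of 19983 in KO. The glycoprotein group moved the other way, from 0.112% ± 0.00453 of reads in WT to 0.0831% ± 0.00440 in KO. Its highest values were those of Man2b1, with means of 603 in WT and 413 in KO, while 2 of its 5 genes were higher in KO. The glycosaminoglycan group also had a lower share, 0.0852% ± 0.00490 in WT and 0.0727% ± 0.00266 in KO. Gusb had the highest values of that group, with means of 425 in WT and 326 in KO. Of its 6 tested genes 3 were higher in KO and 3 lower, so the share does not describe the group as a whole.

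**Figure D1:**
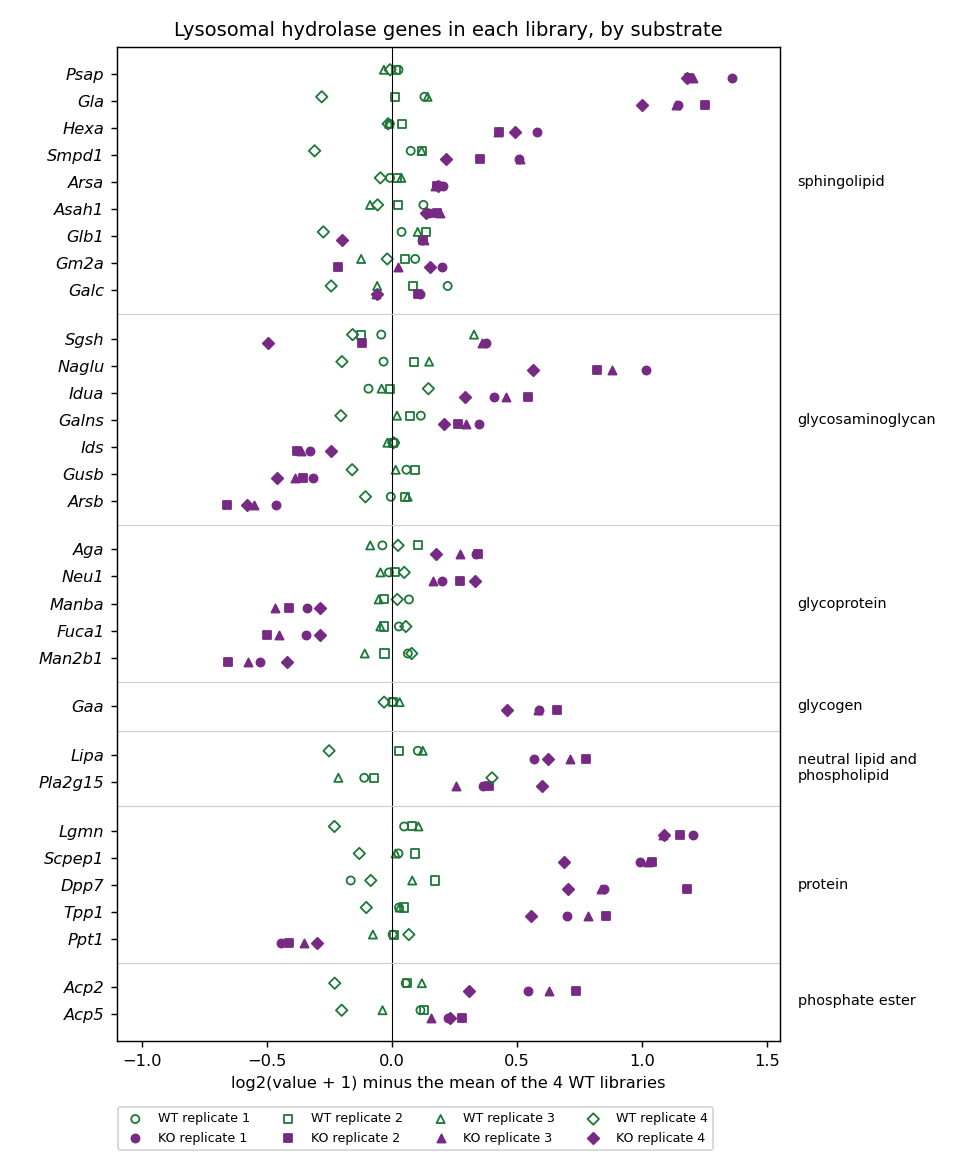
Each point is 1 library of 1 gene, as log2(value + 1) minus the mean of the 4 WT libraries (x axis, log2 units), with genes grouped by substrate on the y axis, open symbols for WT and filled symbols for KO. KO points lie to the right of all WT points for 19 tested genes, including Psap, Gla and Lgmn, and to the left for 7, including Man2b1 and Arsb.

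Sphingolipids, the membrane lipids that carry sugar chains or phosphocholine, are taken apart by enzymes that need small activator proteins. Of the 9 genes of this group 6 were higher in KO, 0 were lower and 3 failed the test. Their median log2 difference was 0.184. Psap encodes prosaposin, the precursor of the saposins that present sphingolipids to their hydrolases (ENSMUSG00000004207, GRCm38 chromosome 10, 60277627 to 60302597). Its values were 5278, 5247, 5069 and 5156 in WT 1 to 4 and 13295, 11803, 11936 and 11743 in KO 1 to 4. The KO libraries stood far above the WT libraries, with KO 1 highest (log2 difference 1.23, SE 0.0654, limma adjusted p = 1.76e-06). Ranked by value, Psap stood 5 to 8 among all genes of the table in the WT libraries and 4 to 6 in the KO libraries, and under quantile normalisation, which forces equal value distributions, its difference was 0.22 and no longer passed (limma adjusted p = 0.118).

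Gla encodes alpha-galactosidase A, which removes the terminal galactose of globotriaosylceramide and is deficient in Fabry disease (chromosome X, 134588149 to 134601125). It was measured at 71.4, 65.7, 72.0 and 53.5 in WT and at 145, 157, 144 and 131 in KO. Every KO value was higher than every WT value, and the groups differed by 1.13 log2 units (SE 0.0967, limma adjusted p = 2.42e-05). Hexa, the alpha subunit of the beta-hexosaminidase that cleaves GM2 ganglioside (chromosome 9, 59539540 to 59565109), was 611, 632, 610 and 609 in WT and 920, 827, 826 and 866 in KO. The 4 WT values were close together and all below the KO values (log2 difference 0.48, SE 0.05, limma adjusted p = 7.02e-05). Exons of Hexa share 12.8% of their bases with Tmem202 on the opposite strand. Gm2a, the activator protein that lifts GM2 out of the membrane for this enzyme, was 335, 326, 288 and 310 in WT and 361, 270, 319 and 349 in KO, so that the groups overlapped (log2 difference 0.04, 95% interval -0.16 to 0.24, limma adjusted p = 0.766).

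Smpd1, the acid sphingomyelinase, had 21.2, 21.9, 21.9 and 16.0 in WT and 29.0, 25.9, 29.1 and 23.5 in KO. The lowest KO value exceeded the highest WT value (log2 difference 0.40, SE 0.113, limma adjusted p = 0.0201), and the call was lost without KO 1 (limma adjusted p = 0.0571) or KO 3 (limma adjusted p = 0.0591). With the replicate number as a block, the call for Smpd1 was kept (limma adjusted p = 0.00197). Arsa, the arylsulfatase that desulfates sulfatide, was 49.6, 50.6, 51.2 and 48.2 in WT and 57.5, 56.6, 56.2 and 56.8 in KO. The difference was small but larger than the spread of either group (log2 difference 0.18, SE 0.0468, limma adjusted p = 0.0118), and an antisense gene, C230037L18Rik, covers 18.8% of the exon bases of Arsa. Without a stated strand setting of the counting, reads of such opposite partners cannot be told apart. Asah1, the acid ceramidase, was 713, 665, 615 and 628 in WT and 724, 742, 747 and 719 in KO, a difference of 0.16 (SE 0.0556, limma adjusted p = 0.0420). The call for Asah1 was lost without WT 2, WT 3, WT 4 or any 1 of the KO libraries, with limma adjusted p between 0.0513 and 0.113. It was also lost under quantile normalisation (limma adjusted p = 0.173) and without the mean-variance trend (limma adjusted p = 0.0717). With the replicate number as a block it was kept (limma adjusted p = 0.0335).

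The genes of both enzymes that act on beta-linked galactose did not pass the test. Glb1, the beta-galactosidase of GM1 ganglioside and keratan sulfate, was 54.2, 58.1, 56.7 and 43.5 in WT and 57.5, 57.6, 57.7 and 45.9 in KO. Replicate 4 was the lowest library of both groups, and the difference was 0.04 (95% interval -0.20 to 0.28, limma adjusted p = 0.787). Galc, the galactosylceramidase that is deficient in Krabbe disease, was 76.0, 68.9, 62.4 and 54.8 in WT and 70.3, 70.0, 62.2 and 62.3 in KO (log2 difference 0.02, 95% interval -0.20 to 0.24, limma adjusted p = 0.879). The sign of the difference changed without WT 3 or KO 1 for Gm2a, without WT 4 for Glb1, and without WT 4, KO 1 or KO 2 for Galc.

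Glycosaminoglycans, the sulfated chains of proteoglycans, are degraded stepwise by alternating sulfatases and glycosidases. In this group 3 of the 6 tested genes were higher in KO and 3 were lower. Naglu, the alpha-N-acetylglucosaminidase of heparan sulfate breakdown (chromosome 11, 101070012 to 101077672), rose most, from 59.6, 65.0, 67.7 and 53.0 in WT to 124, 108, 113 and 90.7 in KO. All KO values lay above the WT range (log2 difference 0.82, SE 0.105, limma adjusted p = 0.000235). Idua, the alpha-L-iduronidase that is deficient in Hurler disease, was 31.5, 33.5, 32.7 and 37.4 in WT and 45.0, 49.6, 46.6 and 41.5 in KO. WT 4 was the highest WT library and KO 4 the lowest KO library, and the groups still did not overlap (log2 difference 0.42, SE 0.0746, limma adjusted p = 0.00159). Galns, the sulfatase of keratan sulfate and chondroitin sulfate, was 90.7, 88.0, 84.9 and 72.5 in WT and 107, 101, 103 and 96.7 in KO (log2 difference 0.28, SE 0.0733, limma adjusted p = 0.0142).

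The genes of this group that were lower encode 2 sulfatases and the glucuronidase that act on heparan and dermatan sulfate. Arsb, the arylsulfatase of dermatan sulfate (chromosome 13, 93771630 to 93943016), was 64.3, 66.9, 67.4 and 59.9 in WT and 46.5, 40.5, 43.7 and 42.9 in KO. This was the lowest log2 difference among the tested genes of the list, -0.56 (SE 0.0624, limma adjusted p = 9.99e-05). Arsb shares 32.3% of its exon bases with the noncoding gene Gm26527 on the opposite strand. Ids, the iduronate sulfatase that is deficient in Hunter disease (chromosome X, 70343069 to 70365084), was 157, 156, 153 and 156 in WT and 124, 119, 121 and 131 in KO. The WT values of Ids varied by 0.917% of their mean, and all KO values lay below them (log2 difference -0.33, SE 0.0466, limma adjusted p = 0.000428). Gusb, the beta-glucuronidase, was 441, 451, 428 and 379 in WT and 341, 331, 324 and 308 in KO (log2 difference -0.38, SE 0.0630, limma adjusted p = 0.00115).

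Sgsh, the sulfamidase of heparan sulfate, was near the lowest level measured, at 0.966, 0.859, 1.54 and 0.816 in WT and 1.63, 0.866, 1.60 and 0.437 in KO. It was not tested, and the 2 groups overlapped; 21.6% of its exon bases lie opposite exons of Card14. Ids, Idua, Sgsh, Naglu and Gusb belong to the set of 8 genes of heparan sulfate breakdown considered here, together with Hgsnat, Arsg and Hpse. Of the 7 tested genes in this set 5 were higher in KO and 2, Ids and Gusb, were lower. Over all tested genes the shares were 18.7% higher and 20% lower.

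Glycoprotein chains are cut down by sialidase, mannosidases, fucosidase and the amidase that frees the chain from asparagine. Of these 5 genes 2 were higher in KO and 3 were lower, with a median log2 difference of -0.377. Man2b1, the acid alpha-mannosidase (chromosome 8, 85083270 to 85098282), was 629, 589, 558 and 635 in WT and 417, 382, 403 and 449 in KO. The highest KO value stayed below the lowest WT value (log2 difference -0.55, SE 0.0647, limma adjusted p = 0.000150). Manba, the beta-mannosidase, followed the same direction, with 153, 142, 140 and 148 in WT and 115, 109, 105 and 119 in KO (log2 difference -0.38, SE 0.0550, limma adjusted p = 0.000524). Fuca1, the alpha-L-fucosidase, was 168, 161, 159 and 171 in WT and 129, 116, 120 and 134 in KO (log2 difference -0.40, SE 0.0580, limma adjusted p = 0.000538). Within each genotype Fuca1 was highest in replicate 4, while the gap between genotypes was larger than this spread.

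Neu1, the lysosomal sialidase, and Aga, the aspartylglucosaminidase, were higher. Neu1 was 145, 148, 142 and 151 in WT and 169, 177, 164 and 185 in KO (log2 difference 0.24, SE 0.0515, limma adjusted p = 0.00471). Aga was 27.0, 29.9, 26.0 and 28.2 in WT and 35.2, 35.5, 33.7 and 31.4 in KO (log2 difference 0.28, SE 0.0670, limma adjusted p = 0.00854). Neither gene's groups overlapped. Neu1 works in a complex with Glb1 and the protective protein Ctsa, whose values were 709, 704, 731 and 587 in WT and 1137, 1129, 1086 and 935 in KO (log2 difference 0.65, SE 0.0868, limma adjusted p = 0.000297). Among the 3 partners, Ctsa and Neu1 were thus called higher and Glb1 did not pass; the differences were not tested against each other.

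**Figure D2:**
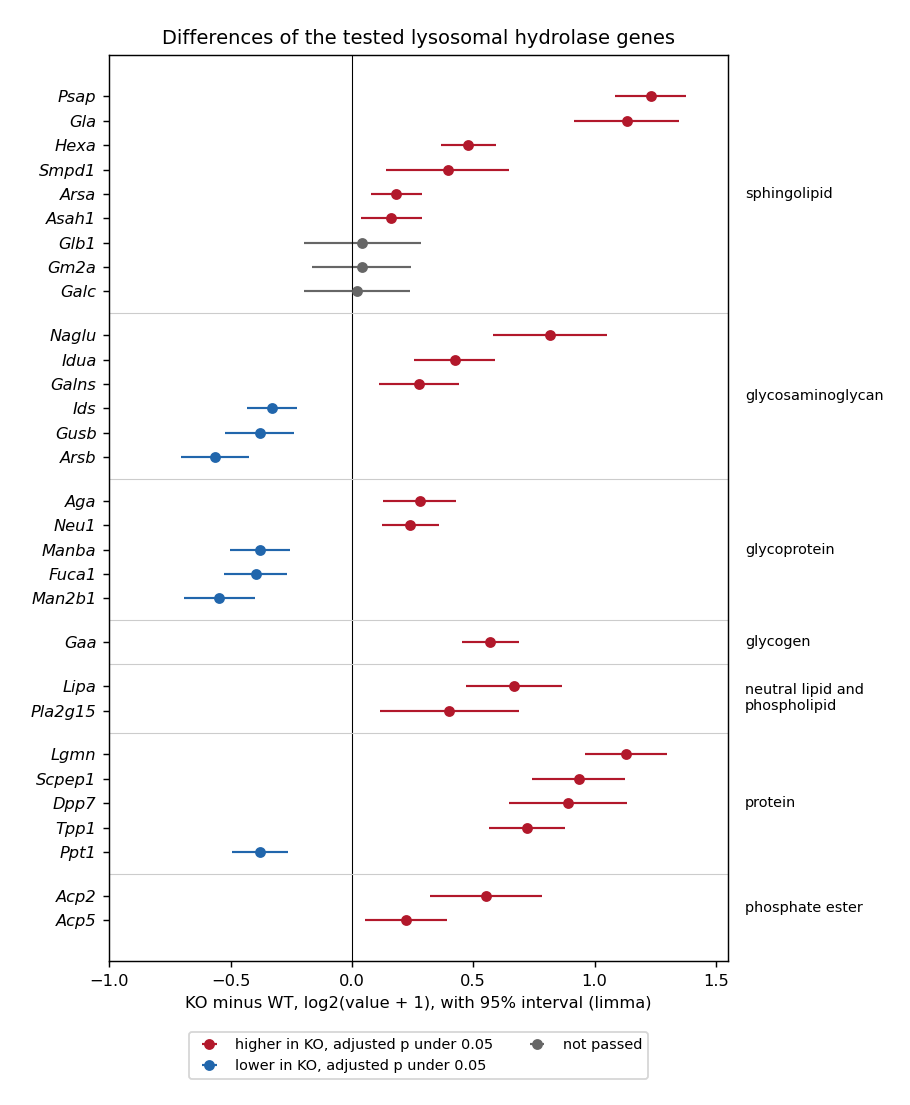
The difference KO minus WT on the log2(value + 1) scale (x axis) with its 95% interval from limma for the 30 tested genes, grouped by substrate, red for higher, blue for lower and grey for not passed. Protein-directed enzymes except Ppt1 lie at 0.72 to 1.13, and 3 of the 5 glycoprotein enzymes lie below 0, at -0.55 to -0.38.

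Gaa, the acid alpha-glucosidase that digests glycogen in the lysosome and is deficient in Pompe disease (chromosome 11, 119267887 to 119285454), was 86.5, 86.6, 88.2 and 84.5 in WT and 130, 137, 130 and 119 in KO. The WT libraries lay close together, and the lowest KO library was well above them (log2 difference 0.57, SE 0.0528, limma adjusted p = 3.62e-05).

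Lipa, the acid lipase that releases cholesterol and fatty acids from lipoprotein lipids (chromosome 19, 34492318 to 34527474), was 956, 908, 970 and 748 in WT and 1321, 1525, 1460 and 1371 in KO. All KO libraries were above the WT libraries (log2 difference 0.67, SE 0.0878, limma adjusted p = 0.000273). Pla2g15, the lysosomal phospholipase that degrades surfactant phospholipid in alveolar macrophages, was 387, 398, 360 and 552 in WT and 539, 548, 500 and 635 in KO. WT 4 lay among the KO values, so the groups overlapped (log2 difference 0.40, SE 0.128, limma adjusted p = 0.0322). The call was lost without WT 1, WT 2, WT 3, KO 1, KO 2 or KO 4, with limma adjusted p between 0.0597 and 0.0827, and under quantile normalisation (limma adjusted p = 0.0927). Within each replicate number the KO library was above the WT library. With the replicate number as a block, the call for Pla2g15 was kept (limma adjusted p = 0.000608).

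The enzymes that act on proteins showed the highest group median, 0.891 on the log2 scale. Higher in KO were 4 of the 5 genes, all of them for peptidases, and 1, the thioesterase gene Ppt1, was lower. Lgmn encodes legumain, the endopeptidase that cuts after asparagine and also processes cathepsins (chromosome 12, 102394084 to 102439813). Its values were 171, 175, 178 and 141 in WT and 382, 369, 351 and 353 in KO. The lowest KO value, 351, lay well above the highest WT value, 178 (log2 difference 1.13, SE 0.0760, limma adjusted p = 5.90e-06). Scpep1, a serine carboxypeptidase (chromosome 11, 88924020 to 88955465), was 122, 127, 121 and 109 in WT and 238, 247, 244 and 193 in KO (log2 difference 0.94, SE 0.0852, limma adjusted p = 3.44e-05). Dpp7, a dipeptidyl peptidase (chromosome 2, 25352276 to 25356359), was 45.5, 57.8, 54.1 and 48.2 in WT and 92.9, 117, 92.1 and 84.0 in KO (log2 difference 0.89, SE 0.109, limma adjusted p = 0.000180). Both carried their lowest KO value in replicate 4 without reaching the WT range.

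Tpp1, the tripeptidyl peptidase whose loss causes a neuronal ceroid lipofuscinosis (chromosome 7, 105744811 to 105752235), was 259, 263, 260 and 237 in WT and 413, 461, 438 and 374 in KO (log2 difference 0.72, SE 0.0696, limma adjusted p = 4.61e-05). Ppt1, the thioesterase that strips palmitate from proteins and is mutated in another of these diseases (chromosome 4, 122836242 to 122859175), went in the opposite direction. It was 453, 455, 429 and 474 in WT and 333, 339, 354 and 367 in KO (log2 difference -0.38, SE 0.0515, limma adjusted p = 0.000349). The highest KO value of Ppt1 was below the lowest WT value.

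The acid phosphatases were both higher in KO. Acp2, the lysosomal acid phosphatase, was 131, 131, 137 and 107 in WT and 184, 210, 195 and 156 in KO (log2 difference 0.55, SE 0.102, limma adjusted p = 0.00214). Acp5, the tartrate-resistant acid phosphatase of macrophages and osteoclasts, was 152, 153, 137 and 122 in WT and 164, 171, 156 and 165 in KO (log2 difference 0.22, SE 0.0752, limma adjusted p = 0.0414). The Acp5 groups were separated by a narrow gap, and the call was lost without WT 3, WT 4 or any 1 of the KO libraries, with limma adjusted p between 0.0573 and 0.0977, as well as under library quality weights (limma adjusted p = 0.0820) and without the mean-variance trend (limma adjusted p = 0.0656). With the replicate number as a block, the call for Acp5 was kept (limma adjusted p = 0.0163). Exons of Acp2 share 12.6% of their bases with Ddb2 on the opposite strand.

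The libraries of replicate 4 stood low in many of these genes. WT 4 had the lowest WT value in 18 of the 31 genes and KO 4 the lowest KO value in 16. WT 3 was lowest in 11 and WT 1 in 2, while KO 3 was lowest in 8, KO 2 in 5 and KO 1 in 2. In other genes replicate 4 was the highest library of its group, in 6 for WT 4 and in 7 for KO 4. How often it was lowest over all genes of the table was not counted. With both replicate 4 libraries left out, calls were lost for Asah1 (limma adjusted p = 0.0776) and Acp5 (limma adjusted p = 0.0814).

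Per kilobase of annotated exon, the level of the 31 genes spanned from 0.237 for Sgsh to 1890 for Psap in WT. Psap was followed by Hexa at 308 ± 5.57, Asah1 at 193 ± 13, Pla2g15 at 141 ± 28.7, Lipa at 132 ± 15.0, Ppt1 at 123 ± 5.02 and Gusb at 93.5 ± 6.99 per kilobase (SD, n = 4). Pla2g15, Lipa and Ppt1 did not differ beyond their spread, while Psap and Hexa were each apart from their neighbours. At the lower end stood Arsb at 10.7 ± 0.572, Idua at 8.03 ± 0.603, Smpd1 at 6.08 ± 0.854 and Galc at 4.40 ± 0.610. The length joins all annotated exons of a gene, whether or not these cells use them, so the order also depends on the annotation. Galc, with 14879 such bases, and Gla, with 3265, had WT means of 65.5 and 65.6 before division, yet stood at places 30 and 21. In KO the order began with Psap at 4444 ± 269, Hexa at 431 ± 22.1, Asah1 at 216 ± 4.05 and Lipa at 209 ± 13.4 per kilobase, where Asah1 and Lipa were within their spread. Lgmn moved from place 10 in WT to place 6 in KO and Scpep1 from place 12 to place 7. Gusb moved down from place 7 to place 12.

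**Figure D3:**
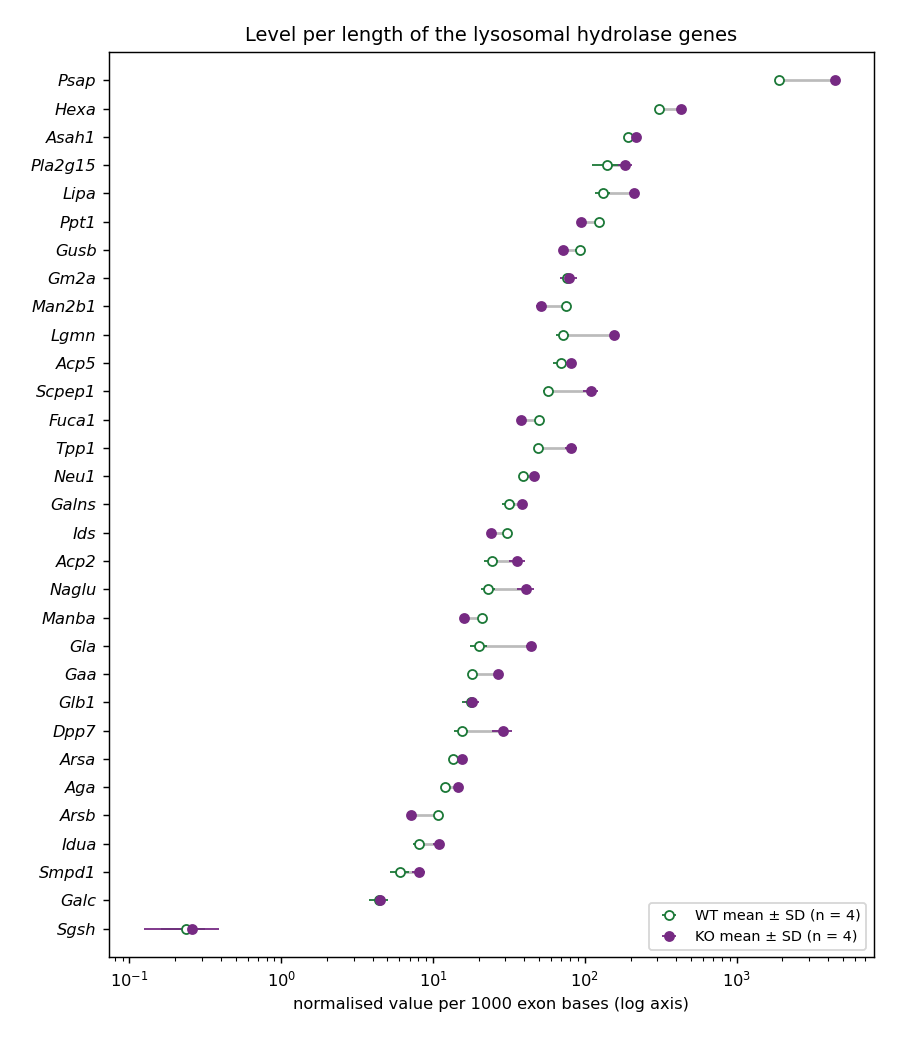
The level per kilobase of exon (x axis, log axis) of the 31 genes, with open circles for the WT mean and filled circles for the KO mean, bars for the SD over 4 libraries and a grey line joining both means. Psap is the highest in both groups, at 1890 in WT and 4444 in KO, and Sgsh the lowest.

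The expression of the genes whose promoter windows hold TCACGTG is given as a description. Of the 7 tested genes with it, 6 were higher in KO, 0 were lower and Glb1 did not pass, with a median log2 difference of 0.818. These 7 include Lgmn, at 1.13, whose site lies in a window that opens no annotated transcript. The other window of Lgmn lacks the letters. Of the 20 tested genes with a window and without these letters, 11 were higher, 7 were lower and 2 did not pass, with a median of 0.232. Over all tested genes 18.7% were higher in KO and 20% lower. Calls among all tested genes with TCACGTG in a window were not counted, so a background for such genes is lacking. Psap, with the highest difference of the list, was among those without the letters, and Arsa and Glb1, with the small differences of 0.18 and 0.04, were among those with them.

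The 8 genes listed here as E-box factors act on such sites, apart from Zkscan3. Tfeb, a master activator of lysosomal genes, was 47.9, 51.8, 50.8 and 53.5 in WT and 61.3, 56.6, 58.6 and 59.3 in KO (log2 difference 0.21, SE 0.0542, limma adjusted p = 0.0136). The rise was small, and the groups did not overlap. Tfe3, a relative of Tfeb, was 55.6, 54.9, 57.2 and 52.7 in WT and 58.5, 62.0, 58.6 and 61.8 in KO and did not pass (log2 difference 0.13, limma adjusted p = 0.0764). Mitf (log2 difference 0.31, limma adjusted p = 0.0807) and Tfec (-0.11, limma adjusted p = 0.695), the other members of that family, did not pass either, but with the replicate number as a block Mitf passed (limma adjusted p = 0.00975), with KO above WT in each of the 4 pairs of libraries. Bhlhe41, an E-box repressor found in alveolar macrophages, was 186, 246, 244 and 186 in WT and 413, 487, 478 and 424 in KO, a difference of 1.07 (SE 0.108, limma adjusted p = 6.13e-05). Its relative Bhlhe40 was 276, 270, 318 and 374 in WT and 484, 447, 434 and 447 in KO, a difference of 0.56 (SE 0.0980, limma adjusted p = 0.00157). Myc (0.08, limma adjusted p = 0.699) and Zkscan3, a zinc-finger repressor of lysosomal genes (-0.07, limma adjusted p = 0.765), did not pass. In all, 3 of these 8 factors were called by limma over all genes, which is 37.5% of them against 38.7% of all tested genes, a share near the background. The 3 were higher and 0 were lower. At an unadjusted p under 0.05, 5 of the 8 were higher and 0 lower, against 22.8% and 24.4% of all tested genes.

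A list of 25 other lysosomal hydrolases and their partners was measured beside the 31 genes. It had 14 genes higher in KO, 3 lower and 8 that did not pass. This is 56% higher and 12% lower, against 18.7% and 20% of all tested genes. The median log2 difference was 0.376, with a range of -1.78 to 2.72. Hpse, the heparanase that cuts heparan sulfate chains internally, was 0.611, 0.347, 0.781 and 0.35 in WT and 8.5, 7.73, 8.97 and 10.7 in KO. It was near the lowest measured level in WT and higher in every KO library (log2 difference 2.72, SE 0.142, limma adjusted p = 1.55e-06). Pld3, a lysosomal exonuclease of single-stranded nucleic acid, rose from 698 ± 28.4 to 1128 ± 39.7 (SD, n = 4; log2 difference 0.69, limma adjusted p = 9.71e-06). Its relative Pld4 was 209, 221, 204 and 258 in WT and 68.1, 49.8, 53.2 and 93.3 in KO (log2 difference -1.78, SE 0.175, limma adjusted p = 5.18e-05). The 2 related exonucleases thus differed between the genotypes in opposite directions.

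Several of the other genes act next to the listed enzymes or are related to them. Hgsnat, which acts with Naglu on heparan sulfate, rose from 65.1 ± 6.73 to 112 ± 8.51 (log2 difference 0.77, limma adjusted p = 9.64e-05). Smpdl3a, a relative of Smpd1, rose from 319 ± 21.3 to 507 ± 21.6 (log2 difference 0.67, limma adjusted p = 3.17e-05), while its relative Smpdl3b was 37.0 ± 6.54 in WT and 23.6 ± 5.66 in KO (log2 difference -0.64, limma adjusted p = 0.0181) with groups that overlapped. Man2b2, a mannosidase related to Man2b1, was 155 ± 13 in WT and 265 ± 24.9 in KO (log2 difference 0.76, limma adjusted p = 9.03e-05), and Man2b1 itself was lower. Prcp, a carboxypeptidase, was the third gene of this list that fell, from 276 ± 14.6 to 235 ± 13.8 (log2 difference -0.23, limma adjusted p = 0.0114). Arsg, a sulfatase of heparan sulfate, was 29.8, 28.2, 21.9 and 17.8 in WT and 76.1, 74.3, 72.0 and 35.5 in KO, with KO 4 far below the other KO libraries (log2 difference 1.33, SE 0.248, limma adjusted p = 0.00225).

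The enzymes depend on other proteins that tag, activate and carry them. Of 21 such genes 6 were higher in KO, 1 was lower and 14 did not pass, with a median log2 difference of 0.0888. The shares, 28.6% higher and 4.76% lower, stand against 18.7% and 20% of all tested genes, and the share called in either direction does not exceed the background of 38.7%. Gnptab, which encodes the catalytic subunits of the enzyme that starts the mannose 6-phosphate tag, fell from 162 ± 7.05 to 124 ± 10.5 (SD, n = 4; log2 difference -0.38, SE 0.0665, limma adjusted p = 0.00149). Gnptg, the gene of its gamma subunit, was 37.9 ± 2.10 in WT and 50.8 ± 2.91 in KO (log2 difference 0.41, SE 0.0640, limma adjusted p = 0.000779), although 49.5% of its exon bases lie opposite exons of Unkl. Of the receptors for the tag, M6pr was 615 ± 29.7 in WT and 625 ± 11.7 in KO (log2 difference 0.02, 95% interval -0.09 to 0.13, limma adjusted p = 0.737). Igf2r, the other receptor, was low at 1.28, 1.37, 3.41 and 1.22 in WT and 5.43, 5.66, 5.36 and 5.03 in KO (log2 difference 1.24, SE 0.210, limma adjusted p = 0.00132). Sumf1, which activates all sulfatases, rose from 110 ± 7.85 to 137 ± 4.46 (log2 difference 0.32, limma adjusted p = 0.00225), while of the sulfatases of the list Arsa and Galns were higher, Ids and Arsb lower and Sgsh not tested. Cln8, which moves new enzymes out of the endoplasmic reticulum, rose from 82.0 ± 6.48 to 128 ± 5.83 (log2 difference 0.64, limma adjusted p = 6.25e-05). The sorting receptor Sort1 and the lysosomal membrane protein Scarb2 did not pass, at log2 differences of -0.10 and 0.08.

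**Figure D4:**
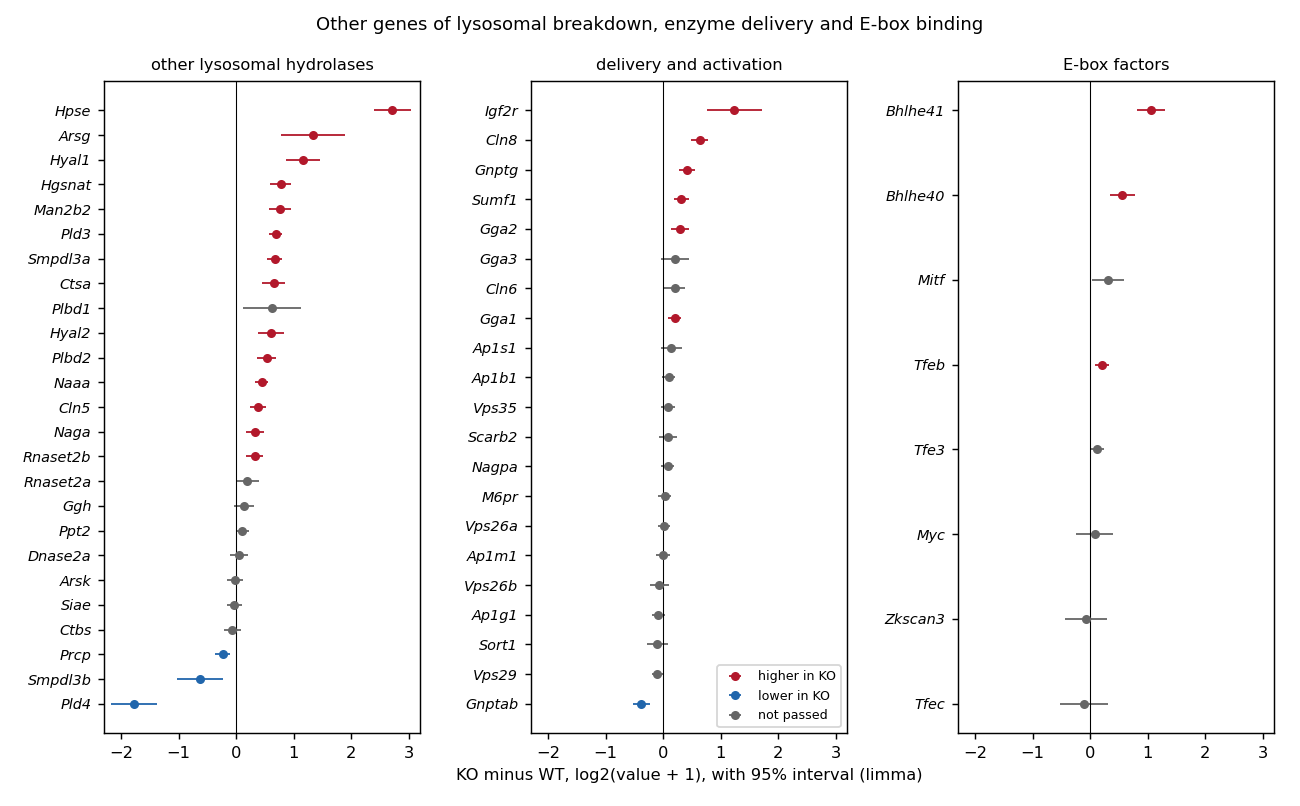
The difference KO minus WT on the log2(value + 1) scale (x axis) with its 95% interval from limma for 25 other lysosomal hydrolases and partners, 21 genes of enzyme delivery and activation, and 8 E-box factors, 1 panel each, red for higher, blue for lower and grey for not passed. Hpse at 2.72 and Pld4 at -1.78 are the extremes, and 14 of the 21 delivery genes are grey.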

How the data were processed

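The 31 genes, their substrate groups and the other lists were chosen with earlier results of these data known. Per the labels' protocols, strand-keeping libraries were made from DNase-treated RNA. The submitters' processing notes list, without roles, cutadapt 1.7.1, RSEM 1.3.1, CASAVA 1.8.2, limma and the build GRCm38; which aligner, annotation and strand setting were used is not given in the sources used here. For each gene and library the authors deposited 1 value of normalised signal. Each value is, at a tolerance of 0.01, what a whole read number plus 0.5 gives on a per-million scale of a scaled library size (100% of values), which gave the depths and floors; floors cover counting error only.

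Values were tested as log2(value + 1), in rows that reach 1 in 4 or more libraries (204 rows left out), with limma 3.58.1 in R 4.3.3 with a mean-variance trend, two-sided, at a Benjamini-Hochberg adjusted p under 0.05 over all tested genes. Log2 differences understate the change of low genes. The steps were tested on simulated data, with the same spread setting for every gene and no replicate effect. That test therefore does not give the error rates in these data. Some genes of the other lists are not reported here, and the counts of those lists leave them out. All 31 genes were named, and of the other lists the genes called and the E-box factors; M6pr, Sort1 and Scarb2 were added outside this rule, with their values in view. Exon lengths, loci and overlaps came from GENCODE vM21 (GRCm38), and promoters from RefSeq. WT and KO use the same replicate numbers. Each library's deviation from its group mean correlated at 0.286 to 0.431 in the 4 same-numbered pairs. In the 12 other pairs it correlated at -0.374 to 0.0917. Deviations from a group mean cancel out within the group, so positive same-numbered pairs in part force lower values in the other pairs. The numbers were taken to pair the libraries because all 4 same-numbered pairs were positive. This pairing was read from the data, as no label explains the numbers. The main fit and the fits with libraries left out did not use the pairing, which entered only where a replicate block is named.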

Additional observations from a re-analysis of the deposited data

Results flagged for a closer look

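In 13 groups of 4 libraries, over the 31 genes and the other lists, 1 library lay apart from the other 3 by more than Dixon's 95% critical value; chance alone flags about 1 in 20 of the 172 groups. Among the 31 genes there were 6. Glb1 was 45.9 in KO 4 against 57.5 to 57.7 in the other KO libraries, and Scpep1 was 193 in KO 4 against 238 to 247. Smpd1 was 16.0 in WT 4 against 21.2 to 21.9, and Tpp1 was 237 in WT 4 against 259 to 263. Hexa was 632 in WT 2 against 609 to 611, and Psap was 13295 in KO 1 against 11743 to 11936. Of the other genes, KO 4 was low in Arsg (35.5 against 72.0 to 76.1) and Sort1 (1388 against 1565 to 1576). WT 4 was low in Dnase2a (130 against 156 to 160) and high in Tfec (232 against 136 to 146). Dnase2a was 165 in KO 1 against 153 to 154, Smpdl3a was 475 in KO 2 against 515 to 522, and Igf2r was 3.41 in WT 3 against 1.22 to 1.37. Of the 13, 4 were in KO 4 and 4 in WT 4.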

How the results depend on the processing

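Alternatives covered the filter, the pseudocount, scaling, the variance model, the threshold, the replicate block and leaving out libraries. The number of the 31 genes called lower was 7 in each of them but a threshold that also asks for 0.5 log2 units. The number called higher was 16 to 19 with 1 library left out, against 20. It was 17 under quantile normalisation, where Psap, Asah1 and Pla2g15 were lost, 18 without the mean-variance trend (Asah1 and Acp5 lost), 19 under quality weights (Acp5 lost) and 14 at an adjusted p under 0.01. With the replicate number as a block it was 20 higher and 7 lower, and the block changed no call of the 31 genes. With the block the other hydrolases called higher were 15 in place of 14, the delivery genes 7 in place of 6 and the E-box factors 4 in place of 3. With at least 0.5 log2 units asked for, 10 were called higher and 2 lower, among all genes 2177 (1139 higher, 1038 lower), among other hydrolases 10 higher, and in the delivery list 2 higher and 0 lower. At an adjusted p under 0.01, 3056 of all genes were called (1513 higher, 1543 lower) and 1 of the other hydrolases was lower. In the delivery list 2 were lower under quantile normalisation and under library quality weights. Differences that changed sign did so around 0, in genes that did not pass: Gm2a was -0.0132 under quantile normalisation, -0.0134 to 0.126 with 1 library left out, and -0.00441 without both replicate 4 libraries. Glb1 was -0.0487 to 0.124 with 1 library left out. Galc was -0.0394 under quality weights, -0.0587 to 0.0965 with 1 library left out and -0.0308 without both replicate 4 libraries; the cause was not tested. The median difference of all genes was -0.00633, -0.00556 under quantile normalisation and 0.0159 under median centring.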
